A study of Mus musculus with 12 samples.

Results

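The 10 genes described here encode AP-1 and EGR transcription factors: Fos, Fosb, Fosl1, Fosl2, Jun, Junb, Jund, Atf3, Egr1 and Egr2. They were taken by symbol from the 27179 genes of the deposited table, with Entrez identifiers matched to RefSeq symbols, and all 10 passed the filter on low counts that left 15969 genes for testing. The study compared gene expression by RNA sequencing in 2 cell types of the mammary gland. Luminal cells line the ducts and alveoli and make the milk, and basal cells form the outer layer that contracts to eject it. All mice were untreated wild-type FVB/N females. The 6 groups are luminal cells of virgin mice, of mice at day 18.5 of pregnancy and of mice at day 2 of lactation, and basal cells of the same 3 stages, with 2 libraries in each group and 2 mice per stage. No ages are given, and the labels do not tie a luminal and a basal library to 1 mouse, so the p-values measure the spread between these libraries. If the 2 mice of a stage gave both cell types, luminal and basal libraries share mice, a pairing that the main tests leave out.

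AP-1 is a dimer of a FOS protein with a JUN protein, or of 2 JUN proteins, held together by a leucine zipper. ATF3, a related zipper protein, pairs with JUN proteins or with itself. The EGR proteins are zinc finger factors that bind GC-rich sites. Most of these genes are immediate early genes: growth factors, mechanical strain and stress switch them on within minutes through kinases and the serum response factor, with no new protein needed. FOS proteins can dimerise only with partners, while JUN proteins can also pair among themselves. The same genes are known to be induced when a tissue is taken apart into single cells. All libraries came from dissociated and sorted cells and none from intact tissue, so the part of dissociation in any level below was not tested.

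RefSeq promoter windows of the build GRCm38.p6, from 250 bases before to 50 after a start site, were found for 8 of the 10 genes (all but Fosl1 and Egr1). Shown are the 120 bases before the start for Fos, Fosb, Atf3 and Egr2, whose levels fell during pregnancy in both cell types, and for Fosl2, whose change differed between the cell types. Capitals mark the letters TGACG, which open the cyclic AMP response element. On the opposite strand they read CGTCA. In Egr2 the capitals also mark a CArG box, the binding motif of the serum response factor.
Fos, chr12:85473770-85473889, plus strand: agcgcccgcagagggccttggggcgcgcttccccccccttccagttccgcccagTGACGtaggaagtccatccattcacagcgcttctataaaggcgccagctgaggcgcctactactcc
Fosb, chr7:19310046-19310165, minus strand: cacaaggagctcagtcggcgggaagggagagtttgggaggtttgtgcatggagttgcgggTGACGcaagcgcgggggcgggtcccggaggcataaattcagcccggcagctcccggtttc
Atf3, chr1:191183334-191183453, minus strand: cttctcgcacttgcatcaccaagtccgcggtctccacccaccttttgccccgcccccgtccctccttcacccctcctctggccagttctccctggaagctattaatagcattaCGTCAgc
Egr2, chr10:67537749-67537868, plus strand: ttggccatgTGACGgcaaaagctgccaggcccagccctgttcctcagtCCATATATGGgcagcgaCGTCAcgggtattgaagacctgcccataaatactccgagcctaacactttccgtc
Fosl2, chr5:32136352-32136471, plus strand: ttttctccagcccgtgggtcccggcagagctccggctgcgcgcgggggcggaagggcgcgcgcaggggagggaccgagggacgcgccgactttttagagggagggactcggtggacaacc

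The motifs were searched on both strands of the whole windows, and TGACG was chosen after the sequences had been looked at. TGACG stood in 5 of the 8 genes, counting from the start site at -129 to -125 and -66 to -62 in Fos, at -60 to -56 in Fosb, at -106 to -102 in Junb and at -7 to -3 in Atf3, and at -111 to -107 and -55 to -51 in the Egr2 window shown. It was not among the letters of the Fosl2, Jun and Jund windows. Of 32851 RefSeq windows of this length 20.8% hold TGACG. The full 8-letter element TGACGTCA, which contains TGACG, was in 0 of the 8 genes and in 1.79% of all windows. Within these windows the CArG box was found for Egr2 alone, in 4 of its 5 windows, some of which overlap and share a box. Of all windows 1.63% hold it, and bases more than 250 before a start were not searched. The letters TATAAA were in the Fos window at -33 to -28 and in the Junb window, against 13.6% of all windows. GCGNGGGCG, the EGR binding motif, was in the windows of Fosb and Fosl2, against 5.55% of all, and TGANTCA, the AP-1 motif, in 0 of the 8 genes, against 7.81%. A match describes letters only and is no evidence of binding.

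The 12 libraries held 20.02 M to 24.72 M counts each. Levels are given as CPM, the count of a gene relative to the library total scaled by TMM factors. Scaling by library size only, in which the milk protein reads of luminal cells count in full, moved the median gene by -0.85 on the log2 scale for luminal cells from pregnancy to lactation, by -1.36 for the same cells from the virgin state to lactation, and by 0.99 for basal over luminal cells in lactation. Changes below are relative to the TMM scale, and a called direction that turned under library size only is given with its value. The 10 luminal marker genes summed to between 5254 and 11921 CPM in luminal and between 1522 and 2324 CPM in basal libraries, and the 10 basal marker genes to between 316 and 1062 CPM in luminal and between 19420.1 and 56401 CPM in basal libraries. In luminal libraries 7 of the 10 basal markers rose in pregnancy and 0 fell, against 21.8% and 24.1% of all genes tested. Their part in the luminal changes below was not tested. The run names put luminal libraries in lane 1 and basal libraries in lane 2, so cell type and lane cannot be told apart. Basal virgin replicate 1 and basal lactating replicate 2 stood above their partners for 9 of the 10 genes, and called results that lose their call or move by over 1.5 times without them are given with and without them.

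**Figure D1:**
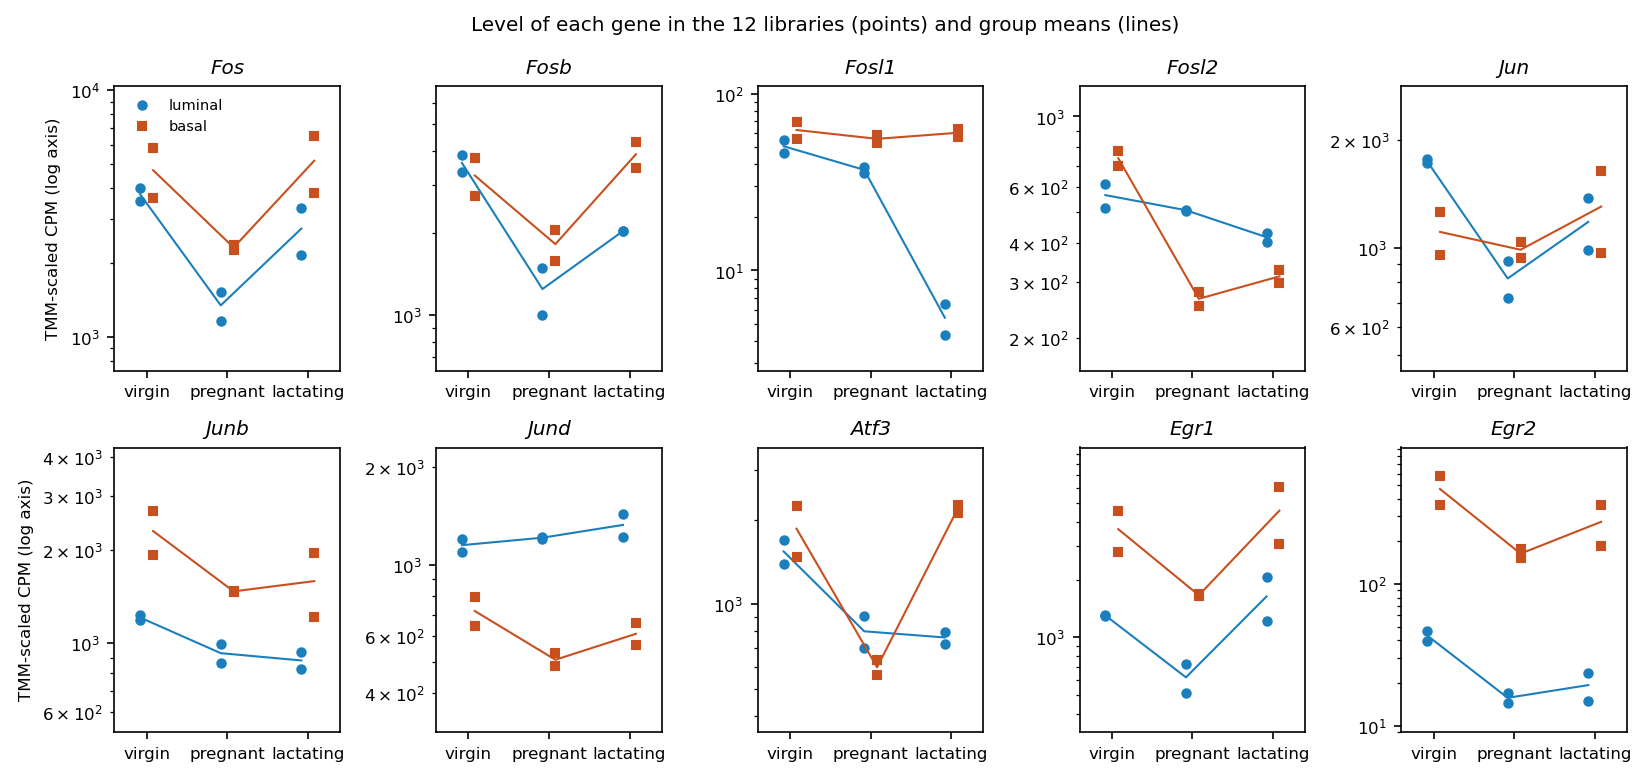
Level of each of the 10 genes in the 12 libraries (points, blue luminal, orange basal) with lines through the group means, in TMM-scaled CPM on a log axis whose range differs between panels. Fos, Fosb and Egr1 had their lowest luminal and basal group means in pregnancy, Egr2 stood higher in every basal library than in any luminal one, and Fosl1 was low in the lactating luminal libraries alone.

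The 10 genes took a large share of the reads. They held between 0.522% and 2.79% of all counts of a library, lowest in luminal lactating replicate 1, whose total includes the milk protein reads, and highest in basal virgin replicate 1. On the TMM scale they summed to 6734 and 8318 CPM in luminal pregnant libraries, the lowest of the 12, and to 9871 and 12133 CPM in luminal lactating ones. By mean CPM per kilobase of deposited length, Fos ranked 12 of 27179 genes in basal virgin, 14 in basal lactating and 15 in luminal virgin cells, and 76 in luminal pregnant cells. Egr1 ranked 24 in basal virgin and 281 in luminal pregnant cells. At the other end, Fosl1 ranked 8964 in luminal lactating cells and Egr2 7410 in luminal pregnant cells.

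Fos (Entrez 14281, chr12:85473890-85477274), the founding member of the FOS family, carries the strong transactivation domain that its shorter relatives lack. In luminal cells Fos stood at 4009.7 and 3557 CPM at the virgin stage, 1162 and 1518 CPM in pregnancy and 2153 and 3337 CPM in lactation. In basal cells it stood at 5821 and 3660.4, 2243 and 2359.7 and 3847 and 6509 CPM at the same stages. Both pregnant groups lay below the virgin and the lactating libraries of their cell type without overlap, and virgin and lactating libraries overlapped in basal cells. Against virgin cells Fos fell in pregnancy by 1.50 (SE 0.29, adjusted p = 0.000983) in luminal and by 1.04 (SE 0.28, adjusted p = 0.0150) in basal cells on the log2 scale, here and below from the edgeR quasi-likelihood test with adjustment over all genes tested. The basal call was lost without basal virgin replicate 1 (adjusted p = 0.145, change -0.67), without basal pregnant replicate 1 (0.0743) and without basal pregnant replicate 2 (0.0662). From pregnancy to lactation Fos rose by 1.03 (SE 0.28, adjusted p = 0.00919) in luminal and by 1.17 (SE 0.28, adjusted p = 0.00799) in basal cells. The luminal rise did not pass without luminal pregnant replicate 1 (adjusted p = 0.0692), without luminal lactating replicate 2 (0.0997) or with library size only (change 0.19, adjusted p = 0.564), and the basal rise did not pass without basal pregnant replicate 1 (0.0595) or without basal lactating replicate 2 (0.108, change 0.74).

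Fosb (Entrez 14282, chr7:19302696-19310118) encodes a close relative of FOS that also carries a transactivation domain in its full-length form. Its level was 3872 and 3356 CPM at the virgin stage, 999.8 and 1494 CPM in pregnancy and 2038 and 2031 CPM in lactation in luminal libraries. The basal libraries gave 3756 and 2742, 1584 and 2058 and 3456 and 4322 CPM. The pregnant libraries were the lowest of both cell types, and the lactating luminal libraries lay between the pregnant and the virgin ones without overlap. Fosb fell in pregnancy by 1.53 (SE 0.22, adjusted p = 0.000118) in luminal and by 0.84 (SE 0.22, adjusted p = 0.0123) in basal cells. The basal call was lost without basal virgin replicate 1 (adjusted p = 0.108) and without basal pregnant replicate 1 (0.0993). Into lactation it rose by 1.09 (SE 0.22, adjusted p = 0.00266) in basal cells. In luminal cells it rose by 0.71 (SE 0.22, adjusted p = 0.0173) on the TMM scale, and stood at -0.14 (adjusted p = 0.567) with library size only. That luminal rise did not pass without luminal pregnant replicate 1 (0.144, change 0.46), luminal lactating replicate 1 (0.0527) or luminal lactating replicate 2 (0.0538). Lactating luminal cells stayed below virgin ones by 0.83 (SE 0.22, adjusted p = 0.00547).

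Fosl1 (Entrez 14283, chr19:5447698-5455938) encodes FRA1, a FOS relative without a transactivation domain that is often linked to migrating cells. It stood at 46.5 and 54.5 CPM at the virgin stage, 35.5 and 38.7 CPM in pregnancy and 6.50 and 4.32 CPM in lactation in luminal libraries, the last from 85 and 57 counts. In basal libraries it stood at 55.6 and 69.2, 58.3 and 52.9 and 63.2 and 57.2 CPM, with overlap between all stages. The 2 lactating luminal libraries were the lowest of the 12 by a wide margin. Fosl1 fell by 2.78 (SE 0.18, adjusted p = 2.32e-07) from pregnant to lactating luminal cells, 6.86-fold, and by 0.45 (SE 0.15, adjusted p = 0.0264) from virgin to pregnant luminal cells. The smaller of these calls was lost without luminal virgin replicate 2 (adjusted p = 0.183) and without luminal pregnant replicate 1 (0.118). Exons of Fosl1 overlap those of Ccdc85b on the opposite strand over 57.2% of their length, and the strand setting of the counting is not given in the sources used here, so its counts are uncertain. Ccdc85b stood at 23.8 and 27.8 CPM in pregnant and 12.1 and 13.6 CPM in lactating luminal libraries and fell by 1.00 (SE 0.12, adjusted p = 2.93e-05). Overlaps of Junb with Prdx2 and of Jun with Junos cover 7.5% and 7.3% of their exons.

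Fosl2 (Entrez 14284, chr5:32136472-32157840) encodes FRA2, the other FOS relative without a transactivation domain. Luminal libraries held 516 and 614 CPM at the virgin stage, 508 and 505 CPM in pregnancy and 403 and 430.1 CPM in lactation. Basal libraries held 779.7 and 697 CPM at the virgin stage, 280.2 and 253 CPM in pregnancy and 299 and 328 CPM in lactation. Both basal virgin libraries lay above all later basal libraries, and the luminal stages differed by far less. Fosl2 fell in pregnancy by 1.47 (SE 0.12, adjusted p = 6.24e-06) in basal cells and changed by -0.16 (SE 0.12, adjusted p = 0.312) in luminal cells. The luminal change exceeded the basal one by 1.31 (SE 0.17, adjusted p = 0.000119), so the pregnancy response of Fosl2 differed between the cell types by the test of that difference. It did not recover in lactation: lactating basal cells stayed below virgin ones by 1.24 (SE 0.12, adjusted p = 8.88e-06), and lactating luminal cells by 0.44 (SE 0.12, adjusted p = 0.00715). The last call was lost without luminal virgin replicate 2 (adjusted p = 0.0910) and without luminal lactating replicate 1 (0.0794).

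Compared per length, Fos made up between 59.0% and 72.2% of the 4 FOS family genes in every library and Fosb between 24.4% and 33.5%. Fosl2 reached 9.34% and 7.01% in the luminal pregnant libraries, where Fos and Fosb were lowest, and lay between 1.29% and 4.51% elsewhere. Fosl1 was between 0.772% and 2.25% in all libraries but the lactating luminal ones, where it was 0.232% and 0.115%. In the JUN family the make-up differed by cell type. Junb held between 57.0% and 68.5% of the 3 JUN genes in basal libraries and between 35.7% and 43.4% in luminal libraries, without overlap. Jund held between 24.0% and 39.7% in luminal and between 12.7% and 16.8% in basal libraries, also without overlap. Jun took 35.1% and 33.1% in luminal virgin and 18.6% and 19.0% in basal virgin libraries. It took 23.3% and 24.8% in basal against 20.3% and 23.1% in luminal pregnant libraries, and the cell types overlapped in lactation. These are shares of CPM per kilobase of the deposited lengths, and no test was made on them.

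**Figure D2:**
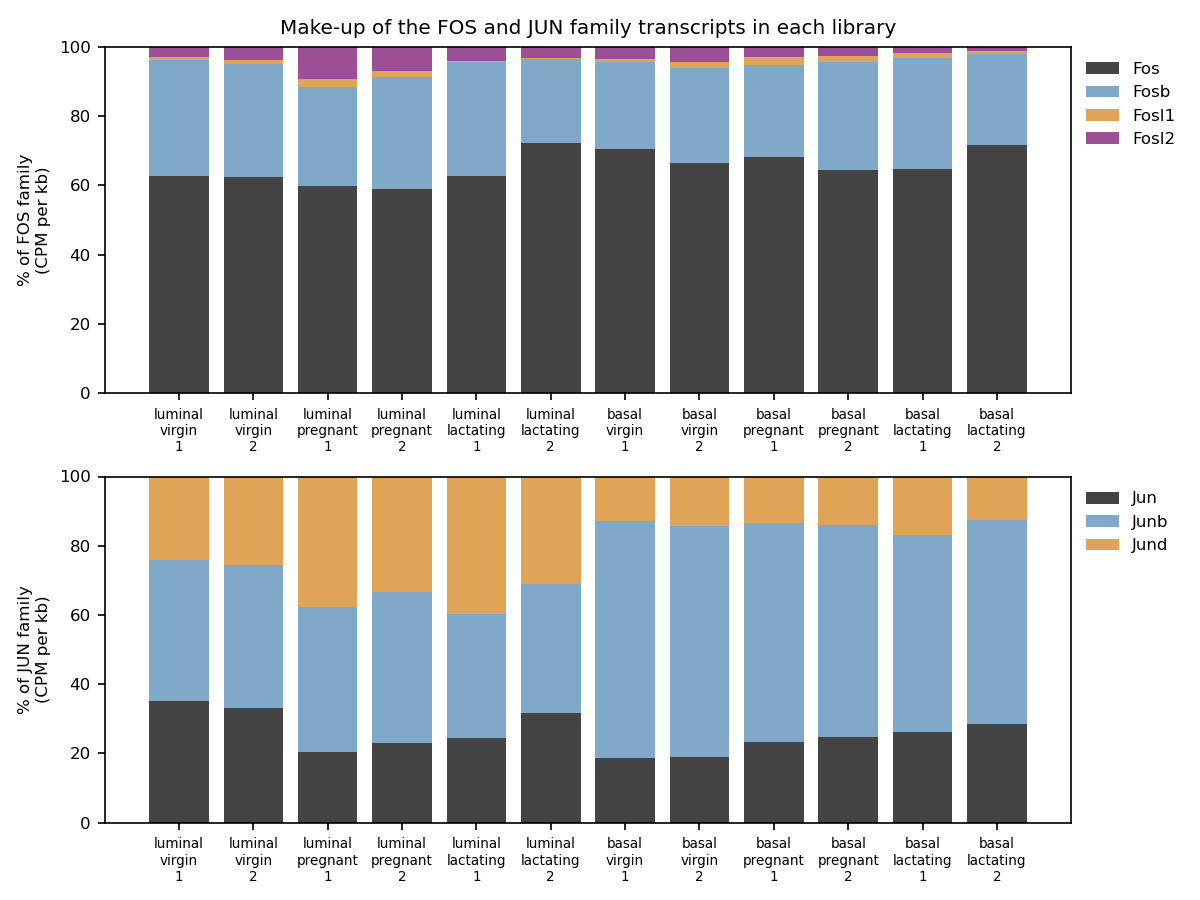
Share of each gene in the summed CPM per kilobase of the FOS family (upper bars) and the JUN family (lower bars), in percent, for each of the 12 libraries. Fos held between 59.0% and 72.2% of its family throughout, and Junb held at least 57.0% of the JUN family in basal libraries and at most 43.4% in luminal ones.

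Jun (Entrez 16476, chr4:95049036-95052222) encodes the JUN protein with the strongest transactivation, a target of the JNK kinases. Luminal libraries held 1769 and 1719.8 CPM at the virgin stage, 724 and 917 CPM in pregnancy and 983 and 1377 CPM in lactation. Basal libraries held 1259 and 954, 938 and 1036 and 968 and 1638 CPM. The luminal virgin libraries were the highest of the 12, and the basal stages overlapped. Jun fell in pregnancy by 1.09 (SE 0.24, adjusted p = 0.00247) in luminal cells, against a change of -0.17 (SE 0.24, adjusted p = 0.633) in basal cells. The difference between these changes was -0.92 (SE 0.33, adjusted p = 0.0536), and its adjusted p was 0.0223 with DESeq2. It was 0.00105 in a fit that pairs same-numbered libraries of a stage (the replicate block), a pairing that the labels do not state. Without basal virgin replicate 1 the difference was -1.14. From pregnancy to lactation the luminal change was 0.53 (SE 0.24, adjusted p = 0.0858). It passed with DESeq2 (adjusted p = 0.0284), without the filter on low counts (0.0376) and with the replicate block (0.00370). The change was 0.78 without luminal lactating replicate 1 and -0.32 with library size only. In virgin mice Jun was lower in basal than in luminal cells by 0.66 (SE 0.24, adjusted p = 0.0283), a call lost without luminal virgin replicate 1 (0.0829), luminal virgin replicate 2 (0.0672) or basal virgin replicate 2 (0.185).

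Junb (Entrez 16477, chr8:84976909-84978748) encodes a JUN protein that activates weakly and can oppose JUN. It stood at 1187 and 1236 CPM at the virgin stage, 864 and 996 CPM in pregnancy and 825 and 936 CPM in lactation in luminal libraries. Basal libraries gave 2679.6 and 1931, 1470.0 and 1473 and 1217 and 1959.5 CPM. At each stage both basal libraries lay above both luminal ones. Junb was higher in basal cells by 0.93 (SE 0.21, adjusted p = 0.00186) at the virgin stage, by 0.66 (SE 0.21, adjusted p = 0.0124) in pregnancy and by 0.85 (SE 0.21, adjusted p = 0.00244) in lactation. The lactation difference was 0.47 (adjusted p = 0.0489) without basal lactating replicate 2. The pregnant call was lost without luminal pregnant replicate 1 (adjusted p = 0.0829). Within basal cells it fell in pregnancy by 0.65 (SE 0.21, adjusted p = 0.0325), which did not pass without basal virgin replicate 1 (0.253), basal pregnant replicate 1 (0.110) or basal pregnant replicate 2 (0.123). The luminal pregnancy change was -0.38 (SE 0.21, adjusted p = 0.153), with an adjusted p of 0.0444 under the replicate block.

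Jund (Entrez 16478, chr8:70697739-70700616) encodes the JUN protein that is made steadily in resting cells. Luminal libraries held 1092 and 1203 CPM at the virgin stage, 1218 and 1203 CPM in pregnancy and 1437 and 1214 CPM in lactation. Basal libraries held 793 and 644, 485 and 531 and 563 and 659 CPM. Every luminal library lay above every basal one. Jund was lower in basal cells by 0.68 (SE 0.14, adjusted p = 0.00122) at the virgin stage, by 1.25 (SE 0.14, adjusted p = 5.73e-06) in pregnancy and by 1.12 (SE 0.14, adjusted p = 1.26e-05) in lactation, and the last stood at -0.12 (adjusted p = 0.469) with library size only. It fell in basal pregnant against virgin cells by 0.50 (SE 0.14, adjusted p = 0.0190), with adjusted p of 0.154 without basal virgin replicate 1, 0.112 without basal pregnant replicate 1 and 0.0523 without basal pregnant replicate 2. The luminal changes were 0.08 (SE 0.14, adjusted p = 0.692) in pregnancy and 0.13 (SE 0.14, adjusted p = 0.479) into lactation on the TMM scale, and -0.43 (adjusted p = 0.0221) and -0.73 (0.000578) with library size only. Exons of Jund overlap the gene model Gm11175 on the opposite strand over 52.6% of their length, so its counts are uncertain.

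Atf3 (Entrez 11910, chr1:191170296-191183333) encodes a stress-induced factor that often represses its targets. In luminal libraries it stood at 1695 and 1390.5 CPM at the virgin stage, 696 and 906 CPM in pregnancy and 799 and 724 CPM in lactation. In basal libraries it stood at 2244 and 1474 CPM at the virgin stage, 559 and 634 CPM in pregnancy and 2115 and 2262 CPM in lactation. It was low in pregnancy in both cell types, lay at or above the higher part of its virgin range in lactating basal cells, and stayed in its pregnant range in lactating luminal cells on the TMM scale. Atf3 fell in pregnancy by 0.95 (SE 0.20, adjusted p = 0.00172) in luminal and by 1.64 (SE 0.20, adjusted p = 9.42e-05) in basal cells. Into lactation it rose by 1.88 (SE 0.20, adjusted p = 5.65e-05) in basal cells, 3.67-fold, while the luminal change was -0.07 (SE 0.20, adjusted p = 0.792), or -0.92 (adjusted p = 0.000552) with library size only. The luminal change into lactation was lower than the basal one by 1.95 (SE 0.28, adjusted p = 0.000186). Lactating basal cells held more Atf3 than luminal ones by 1.52 (SE 0.20, adjusted p = 1.42e-05), while in pregnant mice the difference was -0.43 (SE 0.20, adjusted p = 0.0681), with an adjusted p of 0.00796 under the replicate block and 0.0295 without luminal pregnant replicate 1. In virgin mice it was 0.27 (SE 0.19, adjusted p = 0.246), with an adjusted p of 0.0256 without basal virgin replicate 2.

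Egr1 (Entrez 13653, on chromosome 18) encodes the zinc finger factor that serum and ERK signalling induce most rapidly in many cells. Luminal libraries held 1314 and 1286 CPM at the virgin stage, 510.4 and 726 CPM in pregnancy and 1211 and 2055 CPM in lactation. Basal libraries held 4537 and 2790.2, 1681 and 1633 and 3052 and 6107 CPM. Pregnant libraries were the lowest of both cell types, and basal libraries lay above luminal ones at each stage. Egr1 fell in pregnancy by 1.07 (SE 0.33, adjusted p = 0.0177) in luminal and by 1.15 (SE 0.33, adjusted p = 0.0197) in basal cells. The luminal call was lost without luminal virgin replicate 1 (adjusted p = 0.0555) and luminal pregnant replicate 1 (0.122), and the basal call without basal virgin replicate 1 (0.170, change -0.75), basal pregnant replicate 1 (0.0770) and basal pregnant replicate 2 (0.0976). Into lactation it rose by 1.40 (SE 0.33, adjusted p = 0.00382) in luminal cells (0.56, adjusted p = 0.139, with library size only). The basal rise was 1.47 (SE 0.33, adjusted p = 0.00536), and without basal lactating replicate 2 it was 0.88 (adjusted p = 0.0836). Basal cells held more Egr1 than luminal cells by 1.50 at the virgin stage, 1.42 in pregnancy and 1.49 in lactation, with adjusted p of 0.00174, 0.00199 and 0.00128. The lactation difference was 0.90 (adjusted p = 0.0267) without basal lactating replicate 2.

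Egr2 (Entrez 13654, chr10:67534469-67542188) encodes the EGR factor known for its part in hindbrain and myelinating glia. In luminal libraries it stood at 39.8 and 47.0 CPM at the virgin stage, 17.1 and 14.3 CPM in pregnancy and 15.1 and 23.6 CPM in lactation. In basal libraries it stood at 575 and 362 CPM at the virgin stage, 175 and 152 CPM in pregnancy and 187 and 363 CPM in lactation. The lowest basal library was above the highest luminal one, and the group means spanned 29.8-fold, the widest range of the 10 genes. Egr2 was higher in basal cells by 3.43 (SE 0.31, adjusted p = 9.20e-07) at the virgin stage, 10.8-fold, by 3.38 (SE 0.32, adjusted p = 9.08e-07) in pregnancy and by 3.83 (SE 0.33, adjusted p = 2.55e-07) in lactation. It fell in pregnancy by 1.46 (SE 0.31, adjusted p = 0.00187) in luminal and by 1.52 (SE 0.29, adjusted p = 0.00193) in basal cells. Its luminal change into lactation was 0.30 (SE 0.32, adjusted p = 0.479), and -0.56 (adjusted p = 0.154) with library size only. Its basal change was 0.75 (SE 0.28, adjusted p = 0.0613). It passed with the replicate block (adjusted p = 0.00487) and with DESeq2 (0.0350), and was 0.19 (0.676) without basal lactating replicate 2. Lactating basal cells stayed below virgin ones by 0.77 (SE 0.28, adjusted p = 0.0403), with overlapping libraries and an adjusted p of 0.331 without basal virgin replicate 1 and 0.321 without basal lactating replicate 1, while without basal lactating replicate 2 the change was -1.33. Per length, Egr2 made up between 5.80% and 11.9% of Egr1 and Egr2 together in basal and between 1.18% and 3.64% in luminal libraries.

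Counted over the 10 genes, most fell in pregnancy in both cell types. In luminal cells 7 fell and 0 rose between the virgin state and pregnancy, and 24.1% of all genes tested were called lower and 21.8% higher there. Their median change was -1.01, against -0.04 for all genes tested. Fosl2, Junb and Jund were the exceptions, and with library size only all 10 were called lower, with Fosl2 at -0.66 and Junb at -0.89. Under that scaling 8426 of all genes were called lower and 1212 higher. Of the 7, 5 genes passed without luminal pregnant replicate 1 and 7 without luminal pregnant replicate 2. In basal cells 8 fell and 0 rose, all but Fosl1 and Jun, with a median of -0.94 against 0.00, and 14.4% of all genes were called lower and 15.6% higher. That basal count was 3 without basal virgin replicate 1 or without basal pregnant replicate 1 and 4 without basal pregnant replicate 2, and stayed at 8 without basal virgin replicate 2. Fosl2, Atf3 and Egr2 were the 3 called without basal virgin replicate 1. Fos, Fosb, Atf3, Egr1 and Egr2 fell in both cell types.

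**Figure D3:**
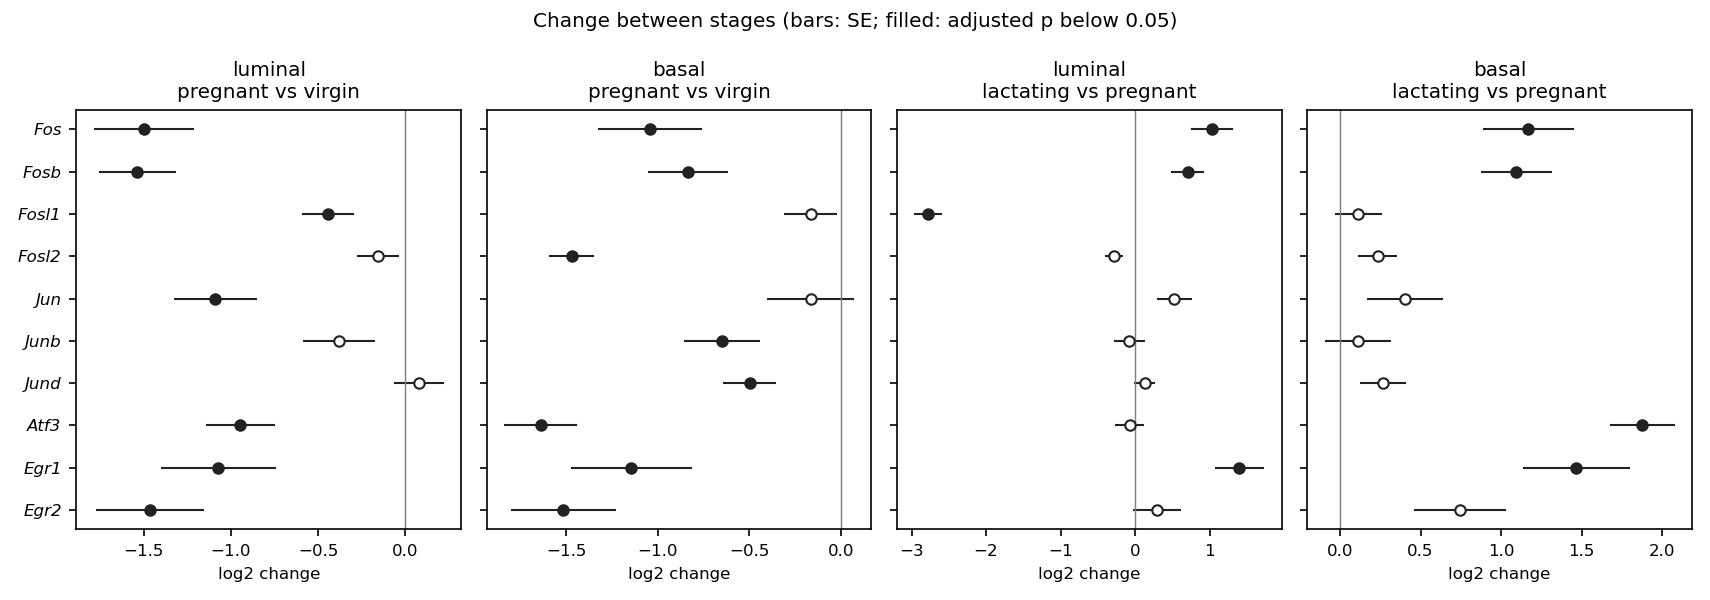
Log2 change of each gene from virgin to pregnant and from pregnant to lactating cells, by cell type, with SE bars and filled points at an edgeR adjusted p below 0.05. The axis range differs between panels. Fos, Fosb, Atf3, Egr1 and Egr2 are filled left of 0 in both pregnancy panels, and Fosb in luminal lactation turned from 0.71 to -0.14 with library size only, as Jund did in both luminal panels.

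From pregnancy to lactation 3 luminal and 4 basal members rose, and the luminal count lies near the share of all genes called higher. In luminal cells Egr1, Fos and Fosb rose, 3 of 10, against 23.7% of all genes called higher, and Fosb was the one of them that turned (-0.14) with library size only, under which 0 of the 10 genes rose and 5 fell, while 1013 of all genes were called higher and 9584 lower. Fosl1 was the single gene that fell, against 24.6% of all genes called lower. The median of the 10 genes was 0.21, against 0 for all genes tested. In basal cells Atf3, Egr1, Fosb and Fos rose, 4 of 10, against 15.7% of all genes, with a median of 0.57 against 0.01, and 0 fell, against 17.4%. Without basal lactating replicate 2 only Atf3 and Fosb passed, and with the replicate block Jun (adjusted p = 0.0389) and Egr2 passed as well, as they did without basal lactating replicate 1 (0.0399 and 0.0112).

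From the virgin state to lactation 5 of the 10 genes fell and 0 rose in luminal cells, where 33.5% of all genes were called lower and 26.7% higher. Fosl1, Egr2, Atf3, Fosb and Fosl2 were those 5, with changes of -3.22, -1.17, -1.02, -0.83 and -0.44. With the replicate block Fos (-0.50, adjusted p = 0.00715), Jun (-0.58, 0.00112) and Junb (-0.46, 0.0160) passed too, and without luminal lactating replicate 1 neither Fosl2 nor Egr2 (adjusted p = 0.0797) passed, which left 3 genes. Jun passed as well without luminal lactating replicate 2 (0.0362). Egr1, at 0.33 (SE 0.33, adjusted p = 0.407), stood at -1.03 with library size only. In basal cells Fosl2, Egr2 and Junb fell and 0 rose, 3 of 10 against 23.7% of all genes called lower and 23.7% higher, with Junb at -0.54 (SE 0.21, adjusted p = 0.0488). That Junb call was lost without basal virgin replicate 1 (adjusted p = 0.350) and basal lactating replicate 1 (0.380), with RLE factors (0.0556) and in the fit of only the libraries compared (0.112), where Egr2 was lost too (0.0703). Without basal lactating replicate 2 the Junb change was -0.92. Fos, Fosb, Atf3 and Egr1 had changes between 0.13 and 0.32 in that comparison and overlapping libraries. Without basal lactating replicate 2 Fos stood at -0.30 and Egr1 at -0.26, and with library size only Fos stood at -0.07. Atf3 passed without basal virgin replicate 1 (0.57, adjusted p = 0.0345).

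The cell types were compared at each stage. In virgin mice 4 genes were higher and 2 lower in basal cells, against 31.5% and 31.2% of all genes, so both counts lie near or below the background. In pregnant mice 6 were higher and 2 lower, against 35.9% and 33.9%. In lactating mice 7 were higher and 2 lower, against 39.2% and 35.4%, and with library size only 9 were higher and 0 lower. Under that scaling 10207 of all genes were called higher and 2529 lower. Egr2, Egr1 and Junb were higher in basal cells and Jund was lower in all 3 stages. Fos differed by 0.33 (SE 0.28, adjusted p = 0.332) at the virgin stage, 0.78 (SE 0.28, adjusted p = 0.0258) in pregnancy and 0.92 (SE 0.28, adjusted p = 0.0105) in lactation. The pregnancy call was lost without luminal pregnant replicate 1 (adjusted p = 0.158), basal pregnant replicate 1 (0.0580) or basal pregnant replicate 2 (0.0815), and the lactation call without luminal lactating replicate 1 (adjusted p = 0.133) and basal lactating replicate 2 (0.165). Fosb differed by 0.55 (SE 0.22, adjusted p = 0.0396) in pregnancy, a call lost without luminal pregnant replicate 1 (0.318) or basal pregnant replicate 2 (0.259), and by 0.93 (SE 0.22, adjusted p = 0.00180) in lactation. Ccdc85b, whose exons overlap those of Fosl1, was higher in basal cells by 1.91 in pregnancy and by 3.15 in lactation, so the Fosl1 differences are uncertain. Fosl1 was higher in basal cells by 0.58 (SE 0.15, adjusted p = 0.00356) in pregnancy and by 3.48 (SE 0.18, adjusted p = 2.52e-09) in lactation, 11.1-fold. In virgin mice it differed by 0.30 (SE 0.15, adjusted p = 0.0862), with an adjusted p of 0.0236 under the replicate block and 0.0313 without basal virgin replicate 1. Fosl2 was higher in basal cells in virgin mice by 0.39 (SE 0.12, adjusted p = 0.0143) and lower in pregnant mice by 0.93 (SE 0.12, adjusted p = 1.94e-05). The virgin call was lost without luminal virgin replicate 1 (0.149) or basal virgin replicate 1 (0.0889). In lactating mice it was lower by 0.41 (SE 0.12, adjusted p = 0.00826), and stood at 0.59 with library size only, and the call was lost without basal lactating replicate 1 (0.0626).

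**Figure D4:**
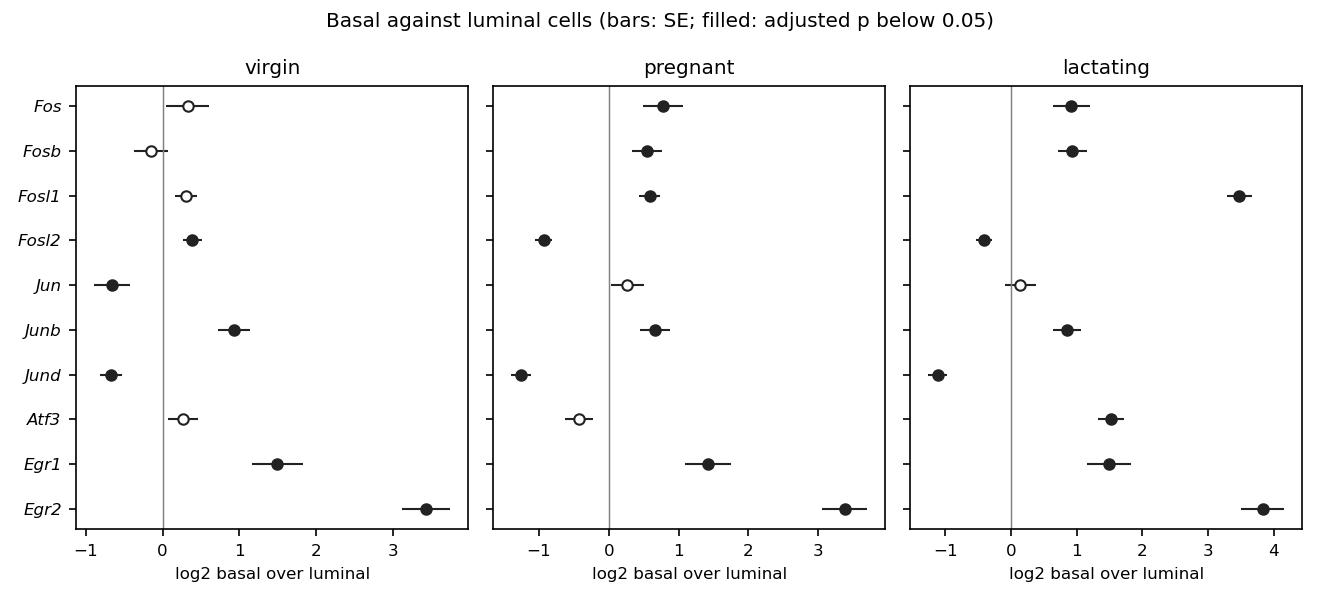
Log2 difference of basal over luminal cells at each stage for the 10 genes, with SE bars and filled points at an edgeR adjusted p below 0.05. Egr2 lies at 3.43, 3.38 and 3.83, Jund left of 0 in all 3 panels, and Fosl2, left of 0 in lactating mice, stood at 0.59 with library size only.

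The luminal and the basal response were also compared directly. In pregnancy Fosl2 and Jund had changes higher in luminal than in basal cells, by 1.31 and 0.58 (SE 0.20, adjusted p = 0.0466), 2 of 10 against 14.0% of all genes, and 0 had lower ones, against 16.7%. The Jund difference did not pass with RLE size factors (adjusted p = 0.0531) or without any one of 7 of the 8 libraries compared, all but basal virgin replicate 2, where it ran from 0.0651 without luminal virgin replicate 2 to 0.162 without basal virgin replicate 1. With the replicate block Fosb (-0.73, adjusted p = 0.00669), Jun and Atf3 (0.66, 0.00944) also passed. Fosb passed without basal virgin replicate 1 (0.0497) or luminal pregnant replicate 2 (0.0266), and Atf3 without basal virgin replicate 2 (0.0106) or luminal pregnant replicate 1 (0.0433). With library size only 1 gene was higher and 3 were lower, against 1008 and 4614 of all genes. From pregnancy to lactation Fosl1, Atf3 and Fosl2 had lower changes in luminal cells, 3 of 10 against 18.0%, and 0 higher ones, against 18.3%. Fosl1 differed by -2.89 (SE 0.24, adjusted p = 4.31e-06) and Fosl2 by -0.52 (SE 0.17, adjusted p = 0.0325), and the Fosl2 call was lost without basal pregnant replicate 2 (0.111), without basal lactating replicate 2 (0.104) and without each luminal pregnant or lactating library in turn (0.0656 to 0.139). Ccdc85b, whose exons overlap those of Fosl1, had a lactation difference of -1.24 (SE 0.16, adjusted p = 9.82e-05). These comparisons share their pregnant libraries with the stage comparisons above.

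A list of 20 other immediate early genes fell in part in pregnancy, when 24.1% of all genes were called lower and 21.8% higher in luminal cells and 14.4% and 15.6% in basal cells. In luminal cells 10 fell and 4 rose, with a median of -0.39, and in basal cells 11 fell and 1 rose, with a median of -0.50. Klf2, a Krüppel-like factor, went from 124 and 132 to 22.2 and 34.3 CPM in luminal cells and fell by 2.19 (SE 0.22, adjusted p = 5.52e-06). Klf10, a factor induced by TGF-beta, went from 464 and 411 to 214 and 199 CPM in basal cells and fell by 1.08 (SE 0.13, adjusted p = 7.32e-05). Ccn2, a matrix protein gene driven by YAP and by TGF-beta, went the other way and rose by 2.91 (SE 0.25, adjusted p = 1.39e-06) in luminal and by 2.79 (SE 0.24, adjusted p = 8.47e-06) in basal cells. With library size only 14 fell and 2 rose in luminal cells, when 8426 of all genes were called lower and 1212 higher. In basal cells 13 fell and 1 rose, when 3486 of all genes were called lower and 1647 higher.

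Into lactation the same 20 genes parted by cell type. In luminal cells 11 fell and 4 rose, with a median of -0.68, when 24.6% of all genes were called lower and 23.7% higher. In basal cells 7 rose and 4 fell, with a median of 0.29, when 15.7% of all genes were called higher and 17.4% lower. Ccn2 went from 385 and 611 to 3.21 and 4.62 CPM in luminal cells and fell by 6.99 (SE 0.32, adjusted p = 2.03e-08). Klf2 rose in basal cells from 38.6 and 41.4 to 119 and 182 CPM, by 1.91 (SE 0.21, adjusted p = 7.73e-05). With library size only the luminal counts were 16 and 1, when 9584 of all genes were called lower and 1013 higher. The basal counts were the same as above. The luminal change was lower than the basal one for 11 of the 20 genes and higher for 0, against 18.0% and 18.3% of all genes. Among the 11 was Egr3, a further EGR factor, at -3.06 (SE 0.32, adjusted p = 2.26e-05).

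Genes that switch this programme off went both ways, in pregnancy near the shares of all genes. Of 17 feedback genes 5 fell and 3 rose in luminal and 2 fell and 2 rose in basal pregnancy. Of all genes 24.1% were called lower and 21.8% higher in luminal and 14.4% and 15.6% in basal pregnancy. Spry4, an inhibitor of receptor signalling, fell in luminal pregnancy by 2.11 (SE 0.22, adjusted p = 6.86e-06). In luminal lactation 11 of the 17 fell and 5 rose, against 24.6% and 23.7% of all genes. Nab2, a co-repressor that binds EGR proteins, fell by 2.56 (SE 0.20, adjusted p = 7.52e-07) there, from 70.6 and 69.8 to 14.1 and 9.62 CPM. Dusp6, a phosphatase of ERK, fell by 2.26 (SE 0.16, adjusted p = 3.29e-07). In basal lactation 6 fell and 4 rose, against 17.4% and 15.7% of all genes, and Dusp4, another phosphatase, fell by 1.16 (SE 0.22, adjusted p = 0.00208).

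The proteins that AP-1 dimers draw on and the kinases and factors upstream are given by count beside the shares of all genes. In luminal pregnancy 24.1% of all genes were called lower and 21.8% higher, and in basal pregnancy 14.4% and 15.6%. The shares were 24.6% and 23.7% in luminal lactation and 17.4% and 15.7% in basal lactation. Of 15 other zipper genes 4 fell and 3 rose in luminal pregnancy, 5 fell and 3 rose in basal pregnancy, 7 fell and 1 rose in luminal lactation and 2 fell and 3 rose in basal lactation. Creb5, a CREB family gene, went in opposite directions into lactation, by -3.04 in luminal and 2.58 in basal cells, and the 2 changes differed by -5.62 (SE 0.27, adjusted p = 3.24e-07). Of 17 upstream genes 4 fell and 4 rose in luminal pregnancy and 3 fell and 6 rose in basal pregnancy. With library size only the luminal pregnancy counts were 12 fallen and 1 risen of the 15 and 13 fallen and 1 risen of the 17. Under that scaling 8426 of all genes were called lower and 1212 higher. Srf, the serum response factor gene, fell in luminal lactation by 1.20 (SE 0.12, adjusted p = 5.78e-06), from 138 and 141 to 63.4 and 58.3 CPM. Mapk8, which encodes JNK1, fell by 1.12 (SE 0.11, adjusted p = 4.15e-06) in luminal and by 0.83 (SE 0.10, adjusted p = 0.000147) in basal lactation.

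Genes known as AP-1 targets in other cells are also given by count. Of 13 tested genes 3 rose and 5 fell in luminal pregnancy, against 21.8% and 24.1% of all genes. In basal pregnancy, where 8 of 10 members fell, 6 rose and 2 fell, against 15.6% and 14.4%. From pregnancy to lactation 0 rose in either cell type, while 3 luminal and 4 basal members rose. Of the 13 genes 7 fell in luminal and 9 in basal cells, with medians of -1.55 and -1.48. All genes gave 23.7% higher and 24.6% lower in luminal and 15.7% and 17.4% in basal cells. Whether the members act on these genes here was not tested. Cd44, a receptor for hyaluronan, went from 159.8 and 107 to 12.8 and 9.07 CPM in luminal pregnancy and fell by 3.60 (SE 0.20, adjusted p = 5.41e-08). Ccl2, a chemokine gene, rose in basal pregnancy by 2.28 (SE 0.26, adjusted p = 5.94e-05). Lif, a cytokine gene, fell into lactation from 389.7 and 622 to 79.6 and 53.9 CPM in luminal cells and from 151 and 141 to 13.4 and 8.87 CPM in basal cells. It fell by 2.92 (SE 0.24, adjusted p = 1.29e-06) in the former and fell by 3.71 (SE 0.26, adjusted p = 3.78e-06) in the latter.

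Heat shock genes, which tissue dissociation is also known to induce, fell in part in basal pregnancy. Of 12 genes 4 fell and 2 rose in luminal pregnancy, against 24.1% and 21.8% of all genes, with a median of -0.075 against -0.039. In basal pregnancy 6 fell and 0 rose, against 14.4% and 15.6%, with a median of -0.353 against 0.004. With library size only 10 and 8 fell and 0 rose, when 8426 and 3486 of all genes were called lower. Hspa1a, an inducible HSP70 gene, went from 171 and 179.7 to 37.0 and 66.7 CPM in luminal and from 268 and 224 to 61.1 and 89.9 CPM in basal cells. It fell by 1.76 and 1.71. Into lactation 3 rose and 3 fell in basal cells, against 15.7% and 17.4% of all genes. In luminal cells 0 rose and 3 fell, against 23.7% and 24.6%. In virgin mice 7 were higher and 0 lower in basal than in luminal cells, against 31.5% and 31.2%. Basal virgin replicate 1, in which the members were high, held 9860 CPM of the list against 9587 CPM in replicate 2. Basal lactating replicate 2 held 7166 CPM against 7601 CPM in replicate 1. Hspa1a made up 268 and 224 CPM of the basal virgin sums, which rest mainly on other genes of the list. The part of dissociation in the members' changes was not tested.

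Markers of other cells moved with some of the comparisons. Of all genes tested 24.1% were called lower and 21.8% higher in luminal pregnancy, and 14.4% and 15.6% in basal pregnancy. In basal lactation the shares were 17.4% and 15.7%. Endothelial markers fell in pregnancy for 6 of 7 genes in each cell type, from 93.8 and 125 CPM in sum to 31.1 and 22.4 CPM in luminal libraries and from 242 and 399 CPM to 91.7 and 113 CPM in basal libraries. Erythroid markers fell for 3 and rose for 1 of 4 tested genes in luminal pregnancy. In basal pregnancy 2 of the 4 fell, and the sums were 1.35 to 22.8 CPM over all libraries. Fibroblast markers fell for 3 of 7 genes in luminal pregnancy (385 and 239 CPM to 75.1 and 52.6 CPM). In basal pregnancy 2 of the 7 rose and 1 fell (193 and 275 CPM to 665 and 853 CPM). Pericyte markers fell for 4 of 6 genes in luminal pregnancy and summed to between 68.3 and 170 CPM over the 12 libraries. Leukocyte markers fell for 5 of 7 tested genes in basal lactation and summed to at most 51.4 CPM, with Itgam at 0 in 3 of 12 libraries, and adipocyte markers to at most 0.382 CPM in luminal and between 1.39 and 63.0 CPM in basal libraries. Their part in the members' changes was not tested, and in sorted bulk samples fewer cells of a type and less RNA per cell cannot be told apart.

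The 2 libraries of a group differed most for Egr1, Egr2 and Fos. The biological coefficient of variation, the spread beyond counting error, was 22.7% for Egr1, 20.4% for Egr2 and 19.5% for Fos, against a median of 11.5% over all genes, and 9.26% for Fosl2 and 10.3% for Fosl1. In basal virgin mice 9 of the 10 genes were higher in replicate 1, all but Fosl1, with a median log2 difference of 0.46. In basal lactating mice 9 were higher in replicate 2, again all but Fosl1, with a median of -0.51 for replicate 1 over replicate 2. Luminal cells of the same numbers gave medians of -0.01 in virgin and -0.14 in lactating mice. In lactating luminal cells Fos, Jun, Egr1 and Egr2 were nevertheless higher in replicate 2, by 0.63, 0.49, 0.76 and 0.65. Taken as deviations from the group mean, which leave 6 independent values over 12 libraries, Fos ran with Egr1 (r = 0.985) and Jun (0.973), and against Fosl1 (-0.736), as a description of libraries that share depth and handling.

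**Figure D5:**
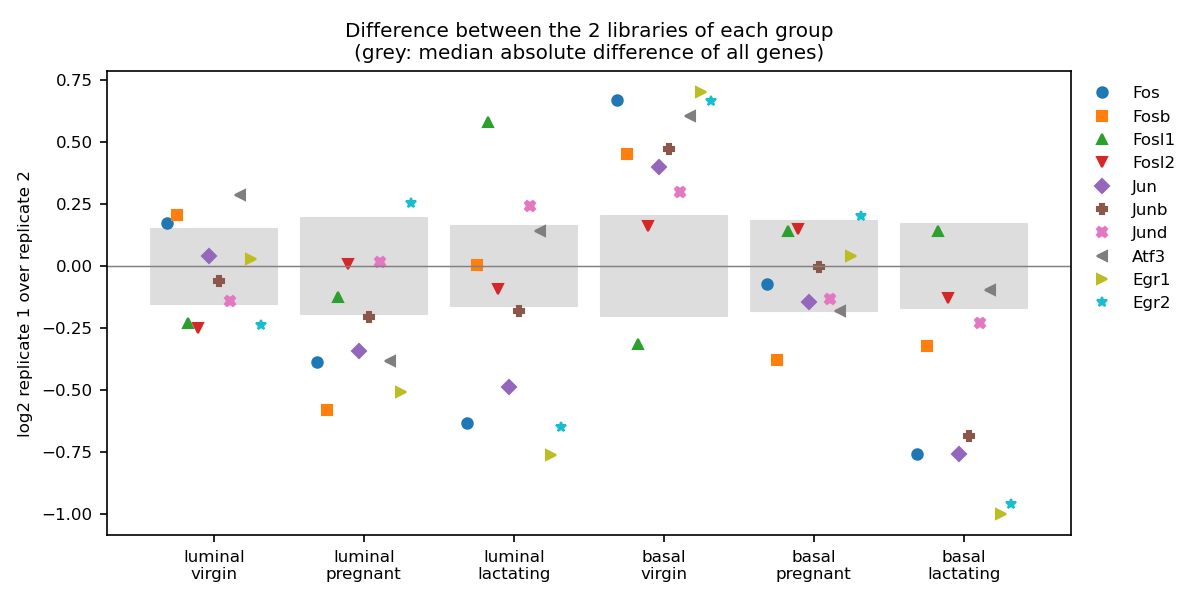
Log2 ratio of replicate 1 over replicate 2 for each of the 10 genes in the 6 groups, with a grey band from minus to plus the median absolute ratio of all genes. In basal virgin mice 9 of the 10 points lie above 0 and in basal lactating mice 9 lie below it, with Egr2 at 0.67 and -0.96.

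The genes whose levels ran most like each member were sought among 10787 genes with a mean of at least 5 CPM, by Pearson's r of log2 CPM over the 12 libraries, which fall into 6 groups. Fos was closest to Zfp346 (0.959), Fosb to Tchp (0.963), Fosl1 to Tnks1bp1 (0.989), Fosl2 to Slc30a1 (0.941) and Jun to Ercc4 (0.908). Junb was closest to Fam222a (0.965), Jund to Smarcd2 (0.993), Atf3 to Cox20 (0.925) and Egr2 to Hspa2 (0.985). Egr1 ran with Bicra (0.962) and with 2 genes of the lists above, Btg2, an antiproliferative immediate early gene (0.954), and Ppp1r15a, a feedback phosphatase subunit (0.940). Among the members themselves the highest values were 0.942 for Fos with Fosb and 0.936 for Junb with Egr2, and the lowest was -0.824 for Jund with Egr2. Within the 6 luminal libraries Fos and Jun gave 0.974, and within the 6 basal libraries Fos and Egr1 gave 0.993.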

How the data were processed

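The authors deposited 1 raw read count per gene and library for 27179 Entrez genes, with gene lengths, and 12 single-library files whose counts differ from the table in 0 cells. Per the submitters' processing notes, tools were featureCounts, Subread 1.4.4 and CASAVA 1.8.2, with mm10 and GRCm38 as builds and no roles stated. The strand setting and the annotation version are not stated there. Symbols matched 25275 identifiers (RefSeq, GRCm38.p6), and the 1904 others, with 0.539% to 1.37% of counts, stayed in the tests. Exon overlaps come from GENCODE gene models.

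Genes passing filterByExpr (minimum count 10) were scaled by TMM, all 6 group means were fitted together, and contrasts were taken by quasi-likelihood F-test (edgeR 4.0.16, R 4.3.3). P-values were Benjamini-Hochberg adjusted over 15969 genes and called below 0.05. SE is the absolute log2 change over the square root of F. Levels per length use the deposited lengths, in bases. The fit was tested on simulated data. Alternatives were RLE factors, library size only, no filter, DESeq2 1.42.0, only the libraries compared, a replicate block and leaving out libraries.

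The labels number libraries 1 and 2 in each group without naming mice. Over 9197 genes the deviations from group means of a luminal and a basal library with 1 number correlated at 0.251 (virgin), 0.325 (pregnancy) and 0.156 (lactation), and at -0.25 to 0.136 for other pairs of groups. Each value being over 0.1, a number was treated as a pair within a stage, which rests on the data and not on the labels. Groups of different stages also reached this size, with 0.136, 0.126 and -0.25, so these correlations cannot show which libraries, if any, share a mouse. The calls made with the replicate block rest on this assumed pairing. The members and lists were chosen with earlier results of these data known. All 10 members are named in every comparison, and of each list up to 2 genes with the largest called change per comparison and no overlap.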

Additional observations from a re-analysis of the deposited data

Results flagged for a closer look

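The responses of 4 genes differed between luminal and basal cells by the test of the difference itself (edgeR, adjusted over all genes tested). In pregnancy the luminal change of Fosl2 exceeded the basal one by 1.31 and that of Jund by 0.58. From pregnancy to lactation the luminal change was the lower one for Atf3 (-1.95), Fosl1 (-2.89) and Fosl2 (-0.52). Ccdc85b, which overlaps Fosl1 on the opposite strand, had a difference of -1.24. The Fosl1 counts are therefore uncertain, and the alternatives do not separate the 2 genes. Fosl2 in pregnancy, Atf3 and Fosl1 passed in all alternatives run, leaving out libraries included, while Jund and Fosl2 in lactation did not pass in several of them.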

How the results depend on the processing

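With 2 libraries per group the spread of 1 group is poorly known, and the fit without a library assumes that the lone library varies like the other groups. Library size only lowers every luminal gene in lactation by its construction. It reversed Jund in luminal pregnancy (-0.43), into lactation (-0.73) and over both (-1.15), Fosb in luminal lactation against pregnancy (-0.14), Egr1 in luminal lactation against the virgin state (-1.03) and Fosl2 in lactating basal against luminal cells (0.59). Changes that passed under neither scaling also changed sign, namely Jun (-0.32) and Egr2 (-0.56) in luminal lactation against pregnancy, Fos in basal lactation against the virgin state (-0.08), Junb (-0.08), Egr1 (-0.28) and Egr2 (-0.29) for the pregnancy difference and Jun (-0.68) for the lactation difference. Under it, all genes called higher and lower were 1212 and 8426 in luminal pregnancy (3488 and 3847 with TMM), 931 and 12496 in luminal lactating against virgin cells (4263 and 5346), 1647 and 3486 in basal pregnancy (2491 and 2303), 2439 and 5202 in basal lactating against virgin cells (3791 and 3788) and 10207 and 2529 in lactating basal against luminal cells (6253 and 5661). All genes called for the lactation difference went from 5787 to 8933, 1012 higher and 7921 lower.

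Members called in luminal lactating against virgin cells were 5, and 10 with library size only, 8 with the replicate block and 8 in the fit of only the libraries compared. For the pregnancy difference they were 2, and 1 with RLE factors, 4 with library size only, 5 without the filter and 5 with the replicate block. For the lactation difference they were 3, and 7 with library size only, and in basal lactating against virgin cells 3, and 1 in the fit of only the libraries compared. Leaving out single libraries gave 5 to 7 members in luminal pregnant against virgin cells (7 with all), 2 to 4 in luminal lactating against pregnant (4), 3 to 6 in luminal lactating against virgin (5), 3 to 8 in basal pregnant against virgin (8), 2 to 6 in basal lactating against pregnant (4), 1 to 3 in basal lactating against virgin (3), and 1 to 3 for the pregnancy difference (2). Leaving out basal virgin replicate 1 and basal lactating replicate 2 together, chosen after seeing the data, gave 3 in basal pregnancy and 2 in basal lactation against pregnancy. The cause of these changes was not tested. The replicate block changed no other call than those given above.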

Other observations

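Some immediate early genes outside the 10 members were mainly basal. Arc, a cytoskeleton-associated gene best known from neurons, stood at 1663 and 1934 CPM at the virgin stage, 1662 and 1889.5 CPM in pregnancy and 1695 and 1481 CPM in lactation in basal libraries. In luminal libraries it stood at 40.3 and 81.7, 63.5 and 90.6 and 28.6 and 27.3 CPM. Basal cells were higher by 4.88 (SE 0.30, adjusted p = 2.35e-08) in virgin and by 4.53 (SE 0.30, adjusted p = 2.56e-08) in pregnant mice (edgeR). Arc libraries overlapped between the basal stages.

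Egr3 and Egr4, the other EGR genes, were also higher in basal cells. Egr4 lay between 23.7 and 46.9 CPM in basal libraries and between 0.152 and 1.92 CPM in luminal ones, with a difference of 4.44 (SE 0.30, adjusted p = 5.78e-08) in virgin mice. Egr3 fell in luminal cells from 46.3 and 51.6 CPM in virgin over 17.4 and 16.4 CPM in pregnant to 2.29 and 3.86 CPM in lactating mice, 3.99 (SE 0.25, adjusted p = 4.66e-08) below virgin cells in the edgeR fit, while Egr1 in the same libraries was at or above its pregnant level.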
